A study of Mus musculus with 8 samples.

Results

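The heat shock proteins and cytosolic chaperones of 4T1 cells were compared between cells with and without the surface protein SCA1. Members were taken by symbol from the protein-coding genes of the mouse annotation: Hspa, Hspb, Hspd, Hspe, Hsph, Hsp90a, Dnaja, Dnajb, Dnajc or Bag followed by a digit, the 8 subunits of the CCT chaperonin and the transcription factor gene Hsf1. The endoplasmic reticulum (ER) genes Hspa5, Dnajb9, Dnajb11 and Dnajc3 were set aside. The rule gave 82 genes, of which 74 were among the 16341 genes of the count table and 68 were among the 11717 genes with enough counts to be tested. The 8 members with no row in the table were Dnajb3, Dnajb7, Dnajb8, Dnajb13, Dnajc5b, Dnajc5g, Hspb3 and Hspb7. The 6 members with too few counts for a test were Dnajc12, with 76 counts over all 8 libraries, and Hspa1a, Hspa1l, Hspa12a, Hspa12b and Hspb9, with 4, 8, 5, 1 and 4 counts.

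4T1 is a mammary carcinoma line from a BALB/c mouse, and SCA1 is the product of the gene Ly6a. The parental line was split on magnetic columns after staining for SCA1, and RNA-seq was run on 4 Sca1+ and 4 Sca1- libraries. All of the cells carried the same label of a CD45-negative gate, which leaves out leukocytes. No treatment, time or genotype distinguished the groups, and both came from the same tumor line, so the contrast is between fractions of 1 cell line. The labels disagree on the origin, since their protocol mentions tumor and their source entry the parental line. Nothing says that the 4 libraries of a group came from separate sorts, so the p-values below measure the spread between these libraries, which may be technical.

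Chaperones hold other proteins while they fold, refold or are taken apart. HSP70 proteins bind short stretches of unfolded chain, and DNAJ proteins deliver those chains and trigger HSP70's ATPase. HSP110 and several BAG proteins release the bound nucleotide. HSP90 takes over kinases and hormone receptors at a late folding stage, the ring-shaped CCT folds actin and tubulin, HSP60 with its lid HSP10 does similar work in mitochondria, and small HSPs hold unfolded chains without ATP. In heat or other proteotoxic stress the factor HSF1 binds heat shock elements before these genes, which are inverted repeats of the unit GAA, and many cancer cells keep this program on without heat.

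The promoters are shown first because HSF1 binds heat shock elements. RefSeq windows (GRCm38.p6, from 250 bases before to 50 bases after a start) were matched for 65 of the 82 members by symbol. Hspa8, Hsp90aa1, Hsp90ab1 and Hsf1 were among those without a window. An element of 3 units, which is the letters GAANNTTC followed by NNGAA on either strand, lay in the windows of 4 of the 65 members, Hspd1, Hspe1, Hsph1 and Dnajb6, which is 6.15%, and in those of 0.662% of all 27025 genes in the table. A pair of units, GAANNTTC or TTCNNGAA, which overlaps every 3-unit element, lay in the windows of 20 of the 65 members (30.8%), and in those of 17% of all genes. Among 10 members known to be induced by heat that had a window, 8 held the pair and 3 held the longer element. The heat-inducible Dnajb1 and Hspa4l held neither. A match is a run of letters and not a measured site, and a missing match does not show that HSF1 cannot act.

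Hspd1 and Hspe1, which encode HSP60 and HSP10, sit head to head and share the bases between their starts, so the longest element is printed from that stretch, at chr1:55087933-55088147 on the plus strand, directly before the Hspe1 start. RefSeq and GENCODE also have a longer Hspd1 model that covers it. The capitals hold a pair of overlapping 3-unit matches.
Hspe1: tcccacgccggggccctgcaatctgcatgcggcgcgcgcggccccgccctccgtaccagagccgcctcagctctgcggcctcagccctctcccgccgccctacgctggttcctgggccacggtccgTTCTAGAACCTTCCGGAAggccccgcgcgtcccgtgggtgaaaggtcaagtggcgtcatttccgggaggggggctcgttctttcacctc

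The inducible HSP70 genes Hspa1b and Hspa1a are shown because their upstream bases are nearly the same and because their reads are hard to tell apart. The 150 bases before each start, at chr17:34959239-34959388 and chr17:34972157-34972306 on the minus strand, were identical at 149 positions, and capitals mark the pair of units at position -104, counted from the base before the start as -1.
Hspa1b: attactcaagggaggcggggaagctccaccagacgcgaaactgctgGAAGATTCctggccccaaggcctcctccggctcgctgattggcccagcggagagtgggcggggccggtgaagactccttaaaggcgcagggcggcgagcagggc
Hspa1a: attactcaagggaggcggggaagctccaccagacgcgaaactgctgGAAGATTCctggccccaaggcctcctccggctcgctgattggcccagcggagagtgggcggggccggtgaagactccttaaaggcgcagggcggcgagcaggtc

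Hspb1, the small HSP gene with the largest fold change among the members, and the CCT genes Cct2 and Cct5 are shown for contrast, with each pair of units in capitals. The stretches end at the base before the start and lie at chr5:135887769-135887918 on the plus strand, chr10:117063376-117063435 on the minus strand and chr15:31601847-31601906 on the minus strand.
Hspb1: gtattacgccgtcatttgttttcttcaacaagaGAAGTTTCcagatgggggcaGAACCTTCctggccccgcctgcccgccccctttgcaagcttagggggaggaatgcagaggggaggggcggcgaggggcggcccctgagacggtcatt
Cct2: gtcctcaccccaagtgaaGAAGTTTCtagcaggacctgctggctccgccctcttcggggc
Cct5: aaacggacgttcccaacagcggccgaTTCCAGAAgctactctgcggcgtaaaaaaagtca

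In Hsph1 (HSP110) and Bag3 the match, in capitals, lay just after the start and began at bases 37 and 43. The stretches printed hold bases 34 to 50 and 38 to 50 with their flanks, at chr5:149636287-149636303 on the minus strand and chr7:128523620-128523632 on the plus strand.
Hsph1: agaTTCTGGAAAGTTCt
Bag3: gaccaGAAGTTTC

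The libraries held 13561804 to 16968215 counts each. Values per library below are normalized counts, which are counts divided by a size factor for the library and are given in the order of replicates 1 to 4. Ly6a itself gave 160.9, 193.3, 144.6 and 168 normalized counts in the Sca1+ libraries and 1.91, 4.107, 0 and 1.141 in the Sca1- libraries. Sca1+ replicate 3 stood apart from the rest of its group, since a chi-square over genes gave 7.02 to 10.1 per degree of freedom against the other Sca1+ libraries and 2.19 to 4.00 among those. In it the fifth of genes with the highest GC content lay 0.13 above and the fifth with the lowest GC content lay 0.12 below the group mean, as medians on the log2 scale. All 10 epithelial markers were counted and 9 tested, of which 2 were higher in Sca1+ libraries (Krt18 and Krt8) and 4 lower (Cdh1, Cldn4, Krt14 and Krt7), with sums of 59166 to 64779 normalized counts in Sca1+ and 60809 to 65654 in Sca1- libraries. Of the 18 leukocyte markers 12 were counted and 4 could be tested, and those 4 were higher in Sca1+ libraries (S100a8, Csf1r, Cd74 and Cd68). Among the untested ones Ptprc, which encodes CD45, had 12 counts over all libraries, 10 in Sca1+ and 2 in Sca1-. In the same order Fcer1g had 10 and 2, Cd79a 24 and 18, Itgam 10 and 11, and Itgax 11 and 12. Cd3e and S100a9 had 4 counts each over all libraries and Lyz2 had 1. The summed leukocyte list ran from 413.9 to 478.9 normalized counts in Sca1+ and from 231.1 to 273.9 in Sca1- libraries. Of 10 fibroblast markers 8 were counted and 3 of 4 tested were higher, with sums of 3101 to 3320 against 2282 to 2637. Of the untested ones Dcn had 49 counts in Sca1+ and 4 in Sca1- libraries, and Pdgfrb had 27 and 1. The collagen gene Col1a2 had 19 and 18 and never passed 8 in a library, and Fap had 4 and 11. Of 8 endothelial markers 7 were counted and 1 of 2 tested was lower, with sums of 146.9 to 190.5 against 143.6 to 188.3. The part of these markers in the chaperone results was not tested.

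Chaperone transcripts, summed over the members, were slightly less abundant in Sca1+ than in Sca1- cells. They took 1.52 to 1.72% of all counts in Sca1+ libraries and 1.90 to 1.98% in Sca1- libraries, and the ranges did not overlap. Most of the sum came from HSP90 and CCT genes (means of 103274 and 88810 of 301997 normalized counts in Sca1- libraries). The sums of BAG, DNAJB and small HSP genes were higher in Sca1+ libraries, with ratios of means of 1.10, 1.08 and 1.07. Of the 68 tested members, 33 fell (48.5%) and 12 rose (17.6%) in Sca1+ cells by edgeR's quasi-likelihood test at a Benjamini-Hochberg adjusted p under 0.05. Among all 11717 tested genes 30.2% fell, 31.3% rose and 61.5% were called in either direction, against 66.2% of the members, so the called share was near the background while the calls were split unevenly. Their median log2 fold change was -0.12, against 0.01 over all tested genes. In bulk RNA, fewer cells that express a gene and less RNA per cell cannot be told apart.

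The changes were small. Of the 45 called members 42 changed by less than 1.5-fold, while 5361 of the 7206 called among all tested genes did so. A call with at least a 2-fold change was found for 2 members, Hspb1 and Dnajc6, both lower, and for 6.1% of all tested genes. The 4 Sca1+ values lay wholly below the 4 Sca1- values for 31 members and wholly above them for 10, while 27.9% and 26.8% of all tested genes did so (54.7% in either direction). Without Sca1+ replicate 3, 11 members rose and 32 fell, and with libraries scaled by their totals alone the median moved to -0.07, with 14 higher and 28 lower. Median transcript GC content was 54.3% for the rising members, 46.7% for the falling members and 49.8% over all tested genes. With offsets corrected for GC content 12 rose and 32 fell. These were not all the same genes, since Bag3 and Bag6 were no longer called higher and others newly were.

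**Figure D1:**
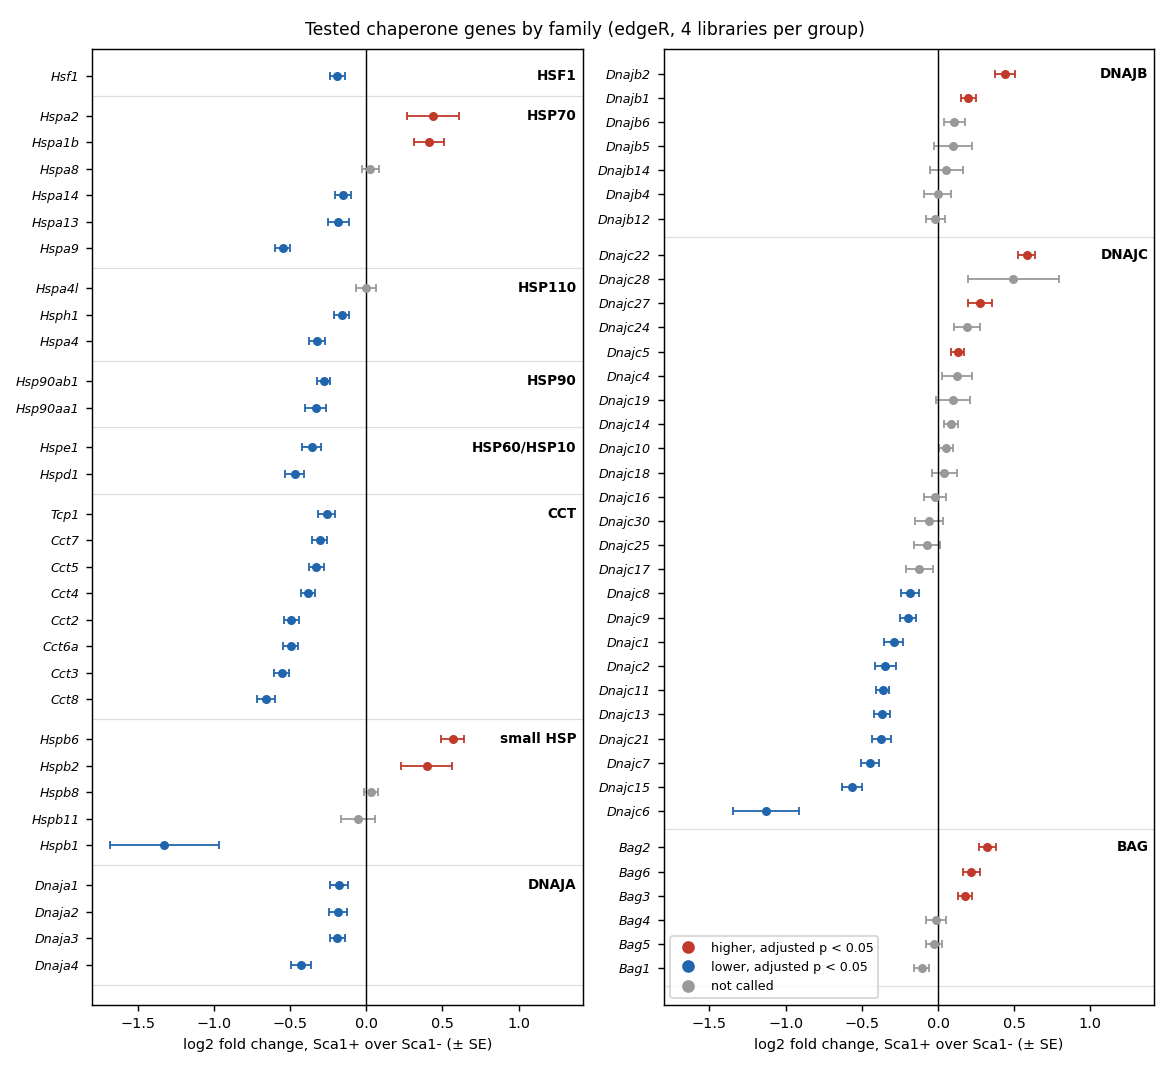
Log2 fold change of each of the 68 tested members, Sca1+ over Sca1-, with its standard error, by family, from 4 libraries per group. All 8 CCT subunits, both HSP90 genes, HSP60, HSP10 and the 4 DNAJA genes lie left of 0, while the called DNAJB and BAG genes lie right of it.

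Hsf1, the factor that drives the heat shock response, was lower in Sca1+ cells. It had 1729, 1792, 1896 and 1762 normalized counts in the Sca1+ libraries and 1900, 2172, 2133 and 2059 in the Sca1- libraries. The groups did not overlap, although Sca1+ replicate 3 and Sca1- replicate 1 almost touched. The log2 fold change was -0.19 ± 0.05 (SE; edgeR, adjusted p = 0.00335).

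The heat-inducible members did not move as a block. Of the 13 listed, 12 were tested, of which 7 fell (Hspb1, Hspd1, Hspe1, Hsp90aa1, Hsp90ab1, Dnaja1 and Hsph1), 3 rose (Hspa1b, Dnajb1 and Bag3) and 2 were not called (Hspa8 and Hspa4l), with a median log2 fold change of -0.17. The falling share was 58.3% and the rising share 25%, against 30.2% and 31.3% of all tested genes. The summed list ran from 102057 to 116460 normalized counts in Sca1+ and from 132309 to 135578 in Sca1- libraries. Most of that sum came from Hsp90ab1. With GC-corrected offsets 3 rose and 6 fell. Bag3 was then no longer called, so Hspa8 or Hspa4l was called higher in its place.

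In the HSP70 family, 2 of the 6 tested members rose and 3 fell, beside 31.3% and 30.2% of all tested genes. The stress-inducible cytosolic gene Hspa1b had 636.1, 635.1, 663.3 and 555.7 normalized counts in Sca1+ libraries. In Sca1- libraries it had 546.3, 533.9, 433 and 365.3. All Sca1+ values were higher, with the Sca1- libraries spread most, and the log2 fold change was 0.41 ± 0.10 (edgeR, adjusted p = 0.00138), or 0.24 with GC-corrected offsets. Its neighbour Hspa1a, which lies on the same strand of chromosome 17 and encodes nearly the same protein, had 4 counts in all, against 4441 for Hspa1b. The coding sequences share 1915 bases (99.4% of Hspa1b's 1926), so which of the pair the reads came from is uncertain.

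The constitutive HSP70 gene Hspa8, the highest cytosolic HSP70 per length (91.3 RPKM in Sca1+ and 89.7 in Sca1- cells, reads per kilobase of merged exons scaled to library size), showed no difference past the spread. It had 6359, 6289, 5325 and 5791 normalized counts in Sca1+ and 5645, 5797, 6200 and 5902 in Sca1- libraries, with the highest and the lowest value both among the Sca1+ libraries. Its log2 fold change was 0.03 ± 0.06 (edgeR, adjusted p = 0.694), and it ran from -0.01 to 0.07 when single libraries were left out. Hspa1b stood at 0.147 to 0.191 of the per-length level of Hspa8 in Sca1+ and at 0.0950 to 0.149 in Sca1- libraries, 2 ranges that overlap and that were compared after the values were seen.

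Hspa9, which encodes mortalin, the HSP70 of the mitochondrial matrix, had the largest drop in the family. Its normalized counts were 11891, 11678, 10292 and 11627 in Sca1+ libraries. In Sca1- libraries they were 17290, 16426, 16903 and 16549. The groups were far apart and Sca1+ replicate 3 was lowest, and the log2 fold change was -0.55 ± 0.05 (edgeR, adjusted p = 2.92e-08). Hspa13 and Hspa14 were lower by smaller amounts (log2 fold changes of -0.18 and -0.15). Hspa13 lost its call without Sca1+ replicate 3, Sca1+ replicate 4 or Sca1- replicate 1 (-0.16 to -0.14), with library totals alone (-0.14), with upper-quartile scaling (-0.15) and with GC-corrected offsets (-0.06). Hspa14 lost its call without Sca1- replicate 4 (-0.14) and with library totals alone (-0.11), and both missed an adjusted p under 0.01. Hspa2, known from male germ cells, was low at 53.5 ± 10.97 (SD, n = 4) in Sca1+ and 39.8 ± 5.29 normalized counts in Sca1- libraries. Its rise of 0.44 on the log2 scale (edgeR, adjusted p = 0.0358) was 0.29 without Sca1+ replicate 1, and the call was lost without any 1 of Sca1+ replicates 1 and 4 and Sca1- replicates 2, 3 and 4.

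Of the 3 HSP110 genes, whose products exchange the nucleotide of HSP70, 2 fell, while 30.2% of all tested genes did so. Hsph1 had 7310, 6894, 6218 and 6889 normalized counts in Sca1+ and 7981, 7455, 7547 and 7797 in Sca1- libraries, which did not overlap. The log2 fold change was -0.16 ± 0.05 (edgeR, adjusted p = 0.0101), and the call was lost with library totals alone. Hspa4 fell further, from 9594 ± 249.7 to 7606 ± 555.2 normalized counts (SD, n = 4; log2 fold change -0.32; edgeR, adjusted p = 3.1e-05). Hspa4l had 1574, 1451, 1362 and 1496 in Sca1+ and 1672, 1363, 1383 and 1519 in Sca1- libraries, which overlapped throughout, and its log2 fold change of -0.00 ± 0.06 turned positive with library totals (0.04), upper-quartile scaling (0.03) and GC-corrected offsets (0.13).

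Both cytosolic HSP90 genes were lower in Sca1+ cells. Hsp90ab1, the constitutive form, was the most abundant member per length, at 1643 RPKM in Sca1+ and 1993 in Sca1- cells. Its normalized counts were 77467, 76429, 69506 and 74660 in Sca1+ libraries and 87900, 92575, 91969 and 92345 in Sca1- libraries. No Sca1+ library reached the lowest Sca1- library, and the log2 fold change was -0.28 ± 0.04 (edgeR, adjusted p = 2e-05). The inducible form Hsp90aa1 had 9970, 10022, 7779 and 10261 normalized counts in Sca1+ and 12711, 11327, 12245 and 12025 in Sca1- libraries. It too did not overlap, with Sca1+ replicate 3 well under the rest of its group, and the log2 fold change of -0.33 ± 0.07 (edgeR, adjusted p = 0.000487) was -0.25 without that library. The per-length level of Hsp90aa1 was 0.0854 to 0.105 of that of Hsp90ab1 in Sca1+ and 0.0933 to 0.110 in Sca1- libraries, so the balance of the inducible and the constitutive form overlapped between the groups.

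The mitochondrial chaperonin pair fell together. Hspd1 (HSP60) had 8542, 8138, 6647 and 8110 normalized counts in Sca1+ libraries. In Sca1- libraries it had 11206, 10523, 11142 and 11070. The gap between the groups was wider than the spread within either, and the log2 fold change was -0.47 ± 0.06 (edgeR, adjusted p = 3.94e-06). Hspe1 (HSP10), the lid of the same complex, had 1049, 880.6, 902.7 and 862.9 in Sca1+ and 1152, 1223, 1253 and 1151 in Sca1- libraries. It also did not overlap, with Sca1+ replicate 1 nearest to the Sca1- values, and the log2 fold change was -0.36 ± 0.06 (edgeR, adjusted p = 7.78e-05). The per-length level of Hspd1 was 4.11 to 5.24 times that of Hspe1 in Sca1+ and 4.80 to 5.43 times in Sca1- libraries. The longest models of Hspd1 and Hspe1 overlap on opposite strands, so reads there cannot be assigned without strand.

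**Figure D2:**
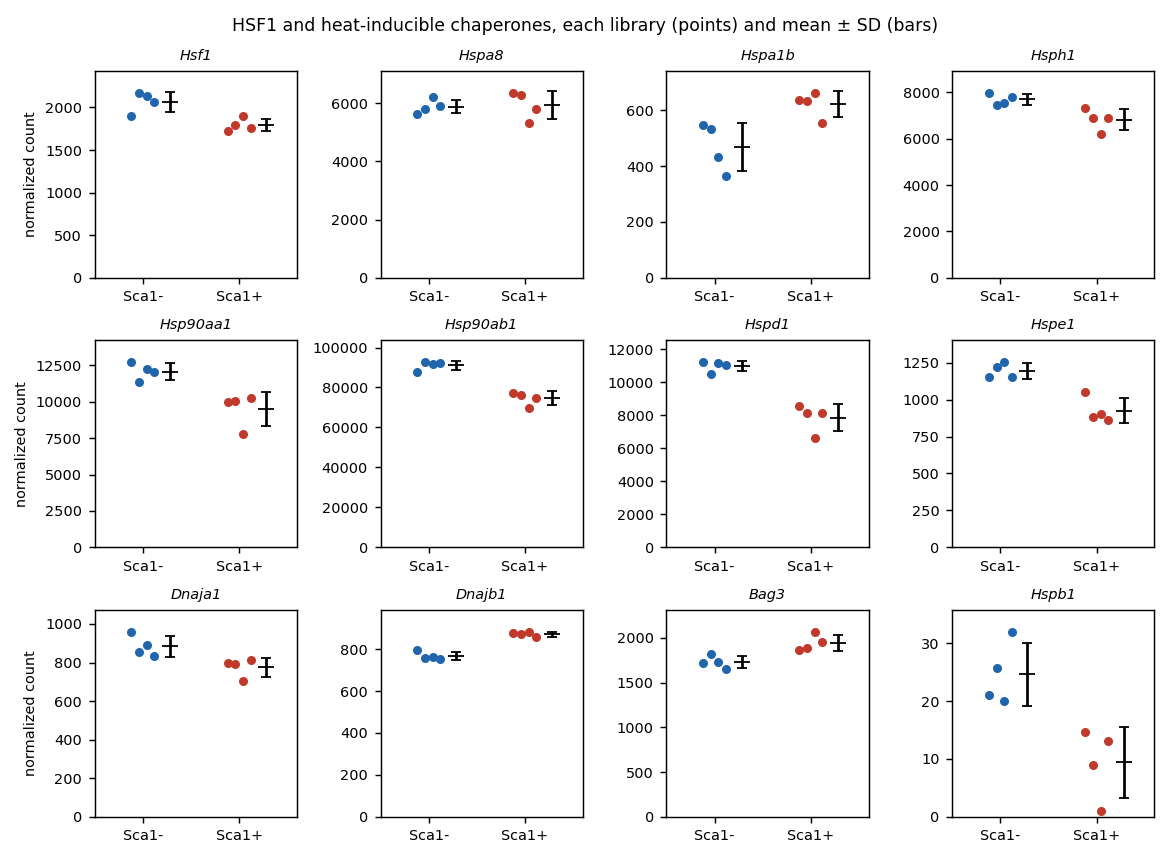
Normalized counts of Hsf1 and 11 heat-inducible members in each of the 4 Sca1- (blue) and 4 Sca1+ (red) libraries, with mean and SD as bars. Hspa1b, Dnajb1 and Bag3 lie higher in Sca1+ libraries, Hspa8 overlaps and the other 8 lie lower.

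The CCT chaperonin gave the most uniform result. All 8 subunit genes were lower in Sca1+ cells, none overlapped between the groups, and the log2 fold changes ran from -0.26 (Tcp1) to -0.66 (Cct8), with a median of -0.44. By comparison, 30.2% of all tested genes were called lower, and 27.9% were lower without overlap between the groups. Summed over the subunits, the libraries held 59986 to 70645 normalized counts in Sca1+ and 85444 to 90761 in Sca1- cells. The ratio of means was 0.740. Each of the 8 calls held when any library was left out and under every scaling, filter, test and GC setting tried, and none of the 8 reached 2-fold.

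Cct8 (theta) fell the most. It had 5939, 5615, 4710 and 5417 normalized counts in Sca1+ libraries. In Sca1- libraries it had 8952, 8106, 8609 and 8831. The lowest Sca1- library was well above the highest Sca1+ library (log2 fold change -0.66 ± 0.06; edgeR, adjusted p = 5.21e-08). Tcp1 (alpha) fell the least, with 8497, 8239, 7089 and 7669 in Sca1+ and 9565, 8778, 9778 and 9878 in Sca1- libraries. Sca1+ replicate 1 and Sca1- replicate 2 lay close together, and the log2 fold change was -0.26 ± 0.06 (edgeR, adjusted p = 0.000709), or -0.15 with GC-corrected offsets.

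Because the ring contains each subunit in equal number, the transcripts were also compared per length. The lengths merge the exons of all annotated models, from 2557 bases for Cct2 to 6778 for Cct7. The order of the subunits therefore depends on the annotation. By mean normalized counts Cct8 lay below Tcp1 in both groups, at 5420 against 7874 in Sca1+ and 8625 against 9500 in Sca1- libraries. Cct5 (epsilon) was highest, at 301.5 to 361.2 RPKM in Sca1+ and 407.8 to 430.1 in Sca1- libraries. Cct2 (beta) came next, at 228.6 to 272 and 334.3 to 362.2 RPKM. Cct6a (zeta) stood at 130.5 to 151.9 and 193.2 to 205.9 RPKM. From Cct5 to Cct6a neighbours in this order did not overlap within either group. Cct8 held 100.4 to 127.5 RPKM in Sca1+ and 171.5 to 190 in Sca1- libraries. In Sca1+ cells it therefore overlapped Tcp1, at 92.8 to 112 RPKM, and in Sca1- cells it stood above Tcp1, at 114 to 128.8. The level of Cct8 was 1.08 to 1.15 times that of Tcp1 in Sca1+ and 1.43 to 1.52 times in Sca1- libraries, a ratio chosen after the values were seen. Cct4 overlapped Tcp1 in both groups, at 88.5 to 102.1 and 120 to 125.2 RPKM. Cct7 and Cct3 ran from 62.97 to 84.22 RPKM in Sca1+ and from 94.87 to 106.4 in Sca1- libraries, below every Cct4 library of their group. Tcp1, Cct6a, Cct7 and Cct8 overlap other genes on the opposite strand.

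**Figure D3:**
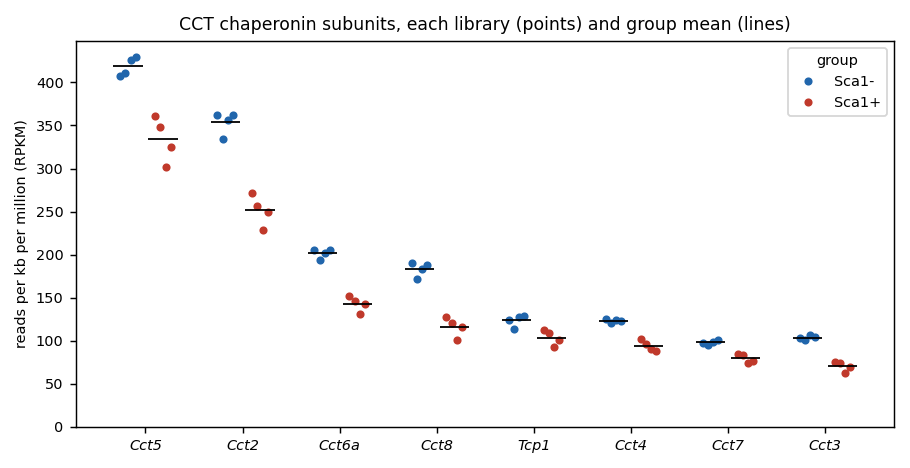
Level per length (RPKM) of each CCT subunit gene in the 4 Sca1- (blue) and 4 Sca1+ (red) libraries, with the group mean as a line. For every subunit the 4 Sca1+ points lie below the 4 Sca1- points, and Cct5 and Cct2 stand above the rest in both groups.

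Small HSPs were split. Hspb1 (HSP25 in mouse) had the largest fold change of all members but was nearly silent. It had 14.62, 8.875, 0.9974 and 13.13 normalized counts in Sca1+ and 21.01, 25.67, 20.04 and 31.96 in Sca1- libraries, from 41 and 93 reads in all. The groups did not overlap, with Sca1+ replicate 3 at a single read. The log2 fold change was -1.33 ± 0.36 (edgeR, adjusted p = 0.00384), and without Sca1+ replicate 3 it was -0.98.

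Hspb6 (HSP20), best known from muscle, rose from 320.7 ± 36.0 to 470.8 ± 25.2 normalized counts (SD, n = 4), with a log2 fold change of 0.57 ± 0.08 (edgeR, adjusted p = 5.31e-06). Hspb2 was low, and its rise of 0.40 (edgeR, adjusted p = 0.0465) was lost in 12 of 19 alternatives, among them leaving out Sca1+ replicate 2, 3 or 4 or Sca1- replicate 1, 3 or 4, and came to 0.24 without Sca1+ replicate 3. Hspb8, which works with BAG3 in the removal of misfolded proteins by autophagy, was the highest small HSP per length. It gave 1855 ± 21.9 in Sca1+ and 1830 ± 89.0 in Sca1- libraries and was not called (log2 fold change 0.03, or -0.02 with GC-corrected offsets). Hspb11 was not called either. Exons of Hspb6 overlap Gm38670 on the same strand and Lin37 and Proser3 on the opposite strand. Those of Hspb2 overlap Cryab on the opposite strand.

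The DNAJ proteins bring substrates to HSP70. All 4 DNAJA genes fell, and 2 of 7 tested DNAJB genes rose and none fell. Of 24 tested DNAJC genes 3 rose and 10 fell. Over all tested genes 31.3% rose and 30.2% fell, so the DNAJB share that rose (28.6%) was near the background. Dnaja1, the main cytosolic class A partner of HSC70, had 796.1, 789.9, 703.2 and 810.4 normalized counts in Sca1+ and 958.8, 855.3, 891.6 and 833.3 in Sca1- libraries. The groups came close but did not overlap. Its log2 fold change was -0.18 ± 0.06 (edgeR, adjusted p = 0.017), and the call was lost with GC-corrected offsets (-0.07), with library totals alone (-0.14) and without Sca1- replicate 1 (-0.15). Dnaja2 was the highest of the class per length and fell by 0.19 on the log2 scale (edgeR, adjusted p = 0.00959). With GC-corrected offsets its log2 fold change was -0.09. Dnaja4 fell by 0.43 (edgeR, adjusted p = 1.98e-05). Among called DNAJ genes, exons of Dnaja1, Dnaja3, Dnaja4, Dnajc1 and Dnajc7 overlap those of other genes on the opposite strand.

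Dnajb1 (HSP40), the inducible class B partner, moved the other way. It had 875.6, 870.7, 882.7 and 856.8 normalized counts in Sca1+ and 794.6, 757.7, 761.4 and 752.2 in Sca1- libraries. Each group was tight and the groups were separate, with a log2 fold change of 0.20 ± 0.05 (edgeR, adjusted p = 0.00201). Dnajb2, which carries ubiquitin-interacting motifs and is known from neurons, rose from 384.6 ± 17.8 to 516.7 ± 36.2 (SD, n = 4; log2 fold change 0.44, or 0.28 with GC-corrected offsets; edgeR, adjusted p = 1.95e-05). Dnajb12 was the highest tested class B gene per length and was not called, with a log2 fold change of -0.02 that became 0.03 with library totals and 0.01 with upper-quartile scaling.

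In the diverse DNAJC class the extremes were genes of restricted function. Dnajc6 encodes auxilin, which uncoats clathrin vesicles and is best known from neurons. It was low, with 13.71, 17.75, 11.97 and 13.13 normalized counts in Sca1+ and 31.52, 31.83, 36.73 and 25.11 in Sca1- libraries. The groups did not overlap, and the log2 fold change was -1.13 ± 0.22 (edgeR, adjusted p = 0.000215). Dnajc6 also stands in the study's own list of genes that mark Sca1- cells, which was drawn from these libraries and is no independent evidence.

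Dnajc22 rose from 483.0 ± 11.5 to 716.7 ± 23.4 normalized counts (SD, n = 4; log2 fold change 0.58; edgeR, adjusted p = 6.8e-08), the largest rise of any member. Dnajc5, the cysteine-string protein of secretory vesicles, rose by less (log2 fold change 0.13; edgeR, adjusted p = 0.0116), and without Sca1- replicate 4 the call was lost at 0.11. Dnajc27 rose as well, by 0.28 on the log2 scale. The 9 other DNAJC genes that fell had log2 fold changes of -0.56 to -0.18. They included Dnajc15 (-0.56), of the mitochondrial import motor, Dnajc7 (-0.45), a tetratricopeptide cochaperone of HSP70 and HSP90, Dnajc11 (-0.36), of the mitochondrial cristae complex, and Dnajc2 (-0.35) and Dnajc21 (-0.37), which act on ribosomes. The largest positive value that was not called belonged to Dnajc28 (0.49 ± 0.30; edgeR, adjusted p = 0.164), at 9.55 to 25.4 normalized counts. Dnajc12, not tested, had 5.25 to 8.98 normalized counts in Sca1+ and 6.69 to 15.4 in Sca1- libraries.

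BAG genes, several of whose products release the nucleotide of HSP70 and link it to other pathways, rose in 3 of 6 cases and fell in none. Over all tested genes 31.3% rose and 30.2% fell. Bag3, which directs clients to autophagy, had 1865, 1884, 2067 and 1952 normalized counts in Sca1+ and 1721, 1822, 1732 and 1649 in Sca1- libraries. All Sca1+ values were higher by a narrow margin (log2 fold change 0.18 ± 0.05; edgeR, adjusted p = 0.00388). Bag2, an inhibitor of the ubiquitin ligase CHIP, rose from 701.0 ± 38.6 to 869.5 ± 40.4 (SD, n = 4; log2 fold change 0.32; edgeR, adjusted p = 9.69e-05). Bag6, which handles membrane proteins that miss insertion, stood at 87.3 RPKM in Sca1+ and 75.0 in Sca1- cells, next to Bag1 at 92.5 and 99.7. Its log2 fold change of 0.22 (edgeR, adjusted p = 0.00213) came to -0.01 with GC-corrected offsets, where Bag3 also lost its call (0.06). Bag1, the founding member, had the lowest log2 fold change of the family, at -0.11 (edgeR, adjusted p = 0.0516), and was called lower in 7 of 19 alternatives.

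Among the members the calls varied with the level of the gene. Of the 23 members with the highest mean level per length (44.5 RPKM or more) 18 fell and 2 rose, with a median log2 fold change of -0.32. Those 18 included all 8 CCT subunits, both HSP90 genes, Hspd1, Hspe1 and Hspa9, so this trend and the family results rest partly on the same genes. Of the 23 with the lowest (7.22 RPKM or less) 6 fell and 4 rose, with a median of 0.04. Over the 68 tested members Spearman's rho between mean level and log2 fold change was -0.39. Level and fold change came from the same 8 libraries, and scarce genes have wider errors, so the rho is a description without a test. Over all tested genes of any level 30.2% fell and 31.3% rose. Their calls were not split by level, so whether the trend is particular to chaperones is not known.

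**Figure D4:**
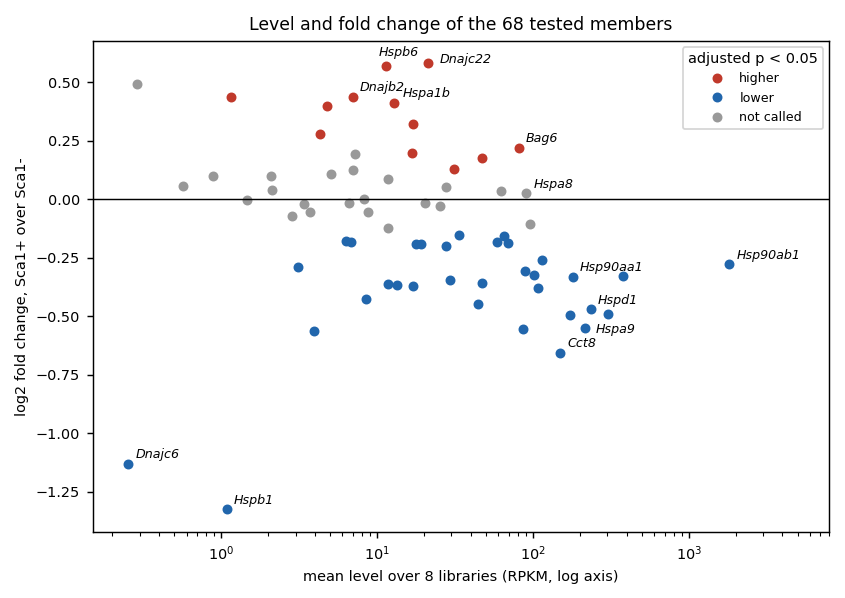
Mean level over all 8 libraries (RPKM, log axis) against log2 fold change, Sca1+ over Sca1-, for the 68 tested members, coloured by call. Most members at 44.5 RPKM or more lie below 0, with Bag6 and Bag3 called above it and Hspa8 close to it.

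Of 68 other genes of the chaperone network 65 were tested, of which 32 fell and 9 rose, with a median log2 fold change of -0.15, while 30.2% of all tested genes fell and 31.3% rose. Among cochaperones of HSP90 and HSP70, 13 of 23 fell and 2 rose, with Stip1 (HOP), which hands clients from HSP70 to HSP90, at -0.56 and the immunophilin Fkbp5 at 0.36. Of the prefoldin subunits and CCT helpers 5 of 12 fell and 1 rose, and of mitochondrial chaperones and proteases 7 of 8 fell and none rose. In the R2TP complex 2 of 4 fell, both subunits of the nascent chain complex fell, and of 4 other heat shock factors and regulators 2 fell and 1 rose.

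The lowest log2 fold changes among the called genes were those of Hspbap1 (-0.70), the prefoldin subunit Pfdn1 (-0.61) and the HSP90 cochaperone Sugt1 (-0.61), and the highest were those of Pdia4 (0.45), Dnajb9 (0.41) and Pdia6 (0.39). These 3 act in the ER, and of the 12 ER genes 5 rose and 1 fell. Of the 4 ER genes that the rule set aside, Dnajb9 rose (edgeR, adjusted p = 0.013), while Hspa5 (0.07), Dnajb11 (-0.06) and Dnajc3 (-0.08) were not called. A looser reading of the rule, with no digit after the prefix, would add Hspbp1 and Hspbap1, both lower, and gives 12 higher and 35 lower of 70.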

How the data were processed

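RNA-seq of 4 Sca1+ and 4 Sca1- libraries of 4T1 cells was used, grouped by GEO's labels. Per the labels, the libraries were made with a TruSeq RNA v2 kit and sequenced on a NextSeq 500. The submitters' processing notes name cutadapt 1.16, STAR 2.5.3a and GRCm38 (mm10). The counting tool, the annotation and the use of strand are not given in the sources used here, nor is the handling of reads shared with processed pseudogenes, which several chaperone genes have. The authors deposited raw counts per Ensembl gene for 16341 genes, and a table of normalized signal that equalled those counts divided by DESeq2 size factors, with relative differences up to 4.88e-15. The signal table left out 969 genes.

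Symbols, positions, merged exon lengths and GC content came from GENCODE M21 on GRCm38, where 16202 of the genes were found, and promoters from RefSeq. Members were the genes of the naming rule that either annotation calls protein-coding. The members and the gene lists were chosen with earlier results of these data known.

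Counts were tested with edgeR 4.0.16 in R 4.3.3 (filterByExpr, TMM, glmQLFit and glmQLFTest, two-sided, no covariate), with Benjamini-Hochberg adjustment over 11717 genes and 4624 not tested. The common biological coefficient of variation was 0.0541. Standard errors were the fold change over the root of F, and RPKM used TMM-scaled library sizes. Members were named with values if heat-inducible or Hsf1, if called with at least a 2-fold change, or if highest, lowest or most abundant in their family. Alternatives were other scalings and filters, DESeq2 1.42.0, limma 3.58.1 (log2 of value + 1 for the normalized table), GC-corrected offsets, a replicate block, stricter thresholds and each library left out. On simulated counts of 11717 genes, the Sca1+ against Sca1- fit recovered 68% of 1.25-fold, 92% of 1.5-fold and 90% of 2-fold changes, and called 0.139% of unchanged genes. Whether these shares carry over to the measured libraries, where 61.5% of the 11717 tested genes were called, was not tested. Since the libraries carried no molecular identifiers, reads copied by PCR count more than once, and any error from counts covers counting alone.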

Additional observations from a re-analysis of the deposited data

Results flagged for a closer look

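A library far from the other 3 of its group was found in 4 of 62 group tests of named members by Dixon's test, where about 1 in 20 groups (3.1 here) is flagged by chance. Both Hsp90aa1 (7779 normalized counts against 9970 to 10261) and Hspa9 (10292 against 11627 to 11891) were low in Sca1+ replicate 3. That library also had the strongest GC tilt, and the part of the tilt in these values was not tested. Hsp90ab1 was low in Sca1- replicate 1 (87900 against 91969 to 92575), and Dnajc22 was high in Sca1- replicate 2 (500.0 against 476.0 to 479.4).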

How the results depend on the processing

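With a log2 fold change of at least 1 also required, 0 members rose and 2 fell, among heat-inducible members 0 rose and 1 fell, among the other chaperone genes 0 rose and 0 fell, and among immediate early genes 2 rose and 3 fell. At an adjusted p under 0.01, 5 of the other chaperone genes rose. The median log2 fold change of members was -0.0724 with library totals and -0.0858 with upper-quartile scaling, and -0.1619 to -0.1013 with single libraries left out (-0.1619 without Sca1+ replicate 1, -0.1481 without Sca1- replicate 2). The members higher then numbered 9 to 11 and those lower 32 to 34. Scaling moved the median of all genes by at most 0.043. The replicate numbers did not pair the libraries (correlations of deviations 0.0957, -0.15, -0.0339 and -0.0011), and with a replicate block 12 members rose and 33 fell.

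Signs turned as follows, in genes near 0 except Bag6. Bag6 was -0.0059 and Hspb8 -0.0162 with GC-corrected offsets, and Hspb8 ran from -0.0052 to 0.0545 with single libraries left out. Dnajb12 was 0.0256 with library totals and 0.012 with upper-quartile scaling, and -0.0762 to 0.0173 with single libraries left out. Hspa8 ran from -0.0109 to 0.0734 with single libraries left out. Hspa4l was 0.0419 with library totals, 0.0284 with upper-quartile scaling, 0.0104 with at least 10 counts in every library, 0.002 with limma-voom, 0.0017 with the replicate block and 0.1251 with GC-corrected offsets, and -0.0454 to 0.0519 with single libraries left out. The causes were not tested. Hspb1 could not be tested where 10 counts were required in every library. Depth limits Hspb1, Hspb2, Hspa2, Dnajc6 and Dnajc28.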

Other observations

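Immediate early genes, which respond within minutes to handling, serum or stress, moved in both directions. Of 19 tested, 6 rose in Sca1+ cells (Egr3 by 1.83 and Egr2 by 1.17 on the log2 scale, and Ier2, Jund, Egr1 and Nr4a1 by less) and 10 fell, among them Atf3 (-2.42), Klf6 (-1.40) and Gadd45b (-1.24). Fos, Jun and Junb were not called. The rising share of 31.6% was near the 31.3% of all tested genes, and the falling share was 52.6% against 30.2%. Summed over the list, the libraries ran from 47059 to 53768 normalized counts in Sca1+ and from 52579 to 63056 in Sca1- cells, which overlapped. The relation of these genes to the chaperone values was not tested.

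Of the mitochondrial genes outside the naming rule, Grpel1 (-0.56), the nucleotide exchange factor of mortalin, Trap1 (-0.29), the mitochondrial HSP90, and the protease genes Clpp (-0.40), Lonp1 (-0.30) and Htra2 (-0.32) fell, while Clpb (-0.06) was not called. Of the other heat shock factors and regulators, Hsf2 (-0.39) and the deacetylase gene Sirt1 (-0.50) fell and Hsbp1 (0.13), which encodes a binding protein of HSF1, rose.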
